A study of Mus musculus with 16 samples.

Results

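Macrophage inflammatory proteins (MIPs) are small secreted chemokines of the CC class that draw monocytes, macrophages, lymphocytes and granulocytes to inflamed tissue. In the mouse they include Ccl3 (MIP-1 alpha), Ccl4 (MIP-1 beta), Ccl6 and Ccl9 (MIP-1 gamma), and they signal, together with the T cell attractant Ccl5 (RANTES), through G protein coupled receptors of which Ccr1 is one. Macrophages that take up silica particles are a known source of such chemokines in the lung. The set described here was chosen by symbol from the platform annotation: Ccl3, Ccl4, Ccl5, Ccl6, Ccl9 and the receptor Ccr1. All 6 listed genes were measured, each by a single probe set, among 19938 genes in all.

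The series examined how crystalline silica (CS) acts on mouse lung and whether the response depends on BLT1, a receptor for the neutrophil attractant leukotriene B4. RNA of total lungs was hybridised to 16 Affymetrix arrays, 1 array per sample, and the values are log2 expression levels. All mice were of C57BL/6 background, 10 to 12 weeks old by the labels, and were given either CS or saline (PBS, phosphate-buffered) through the trachea. The 4 groups taken at day 60 carried KRasLA1, a latent oncogenic allele that gives rise to lung tumors, and were BLT1-/-KRasLA1 with CS, BLT1-/-KRasLA1 with PBS, BLT1+/+KRasLA1 with CS and BLT1+/+KRasLA1 with PBS. The other 4 groups were taken at day 2 and did not carry it: BLT1-/- with CS, BLT1-/- with PBS, BLT1+/+ with CS and BLT1+/+ with PBS. Each CS group holds 3 lungs and each PBS group is 1 array of RNA pooled from 3 mice. KRasLA1 is thus shared by the day 60 CS lungs and their controls, and day and KRasLA1 cannot be told apart. The labels give no animal or litter numbers, and nothing says that the lungs of a group were handled apart, so the p-values cover the spread among these arrays, which could be partly technical.

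Ltb4r1, the gene of BLT1, lay between 7.22 and 7.63 on all 16 arrays, and as the sources used here do not say whether its probe set (10415392) lies in the deleted stretch, its level checks nothing about the genotype labels. Of the arrays, 3 stood apart by a sex-linked gene. Replicate 2 of BLT1+/+KRasLA1 CS had Y-linked Eif2s3y at 10.09, and the gene was at 9.04 and 9.68 in the day 60 PBS pools of BLT1-/-KRasLA1 and BLT1+/+KRasLA1 mice, against 4.27 to 4.74 on the other 13 arrays. Results that rest on that lung or on a day 60 pool are given below with and without it where a call changed. Genes that mark lung tissue itself (12 measured, among them Sftpc and Ager) had a mean level between 12.56 and 12.79 on every array.

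Ccl3 had the largest silica response of the 6 genes at both days. Ccl3 was at 11.86, 12.62 and 12.59 in BLT1-/-KRasLA1 CS lungs, against 9.004 in their PBS pool. It was at 12.46, 12.50 and 12.02 in BLT1+/+KRasLA1 CS lungs, against 9.71 in their pool. At day 2, Ccl3 was at 12.33, 12.36 and 12.70 in BLT1-/- CS lungs, against 8.91 in their pool, and at 11.96, 12.88 and 13.62 in BLT1+/+ CS lungs, against 8.67 in their pool. The lowest CS lung (11.86) lay above the highest PBS pool (9.71), whatever the day, and the lungs of the 4 CS groups overlapped one another. Averaged over both BLT1 genotypes, Ccl3 rose by 2.98 ± 0.32 (SE) on the log2 scale at day 60, which is 7.90-fold (limma, Benjamini-Hochberg adjusted p = 0.000176, where a value under 0.05 counts as called), and by 3.85 ± 0.32, or 14.5-fold, at day 2 (adjusted p = 2.81e-05), in 6 of 6 lungs each time. It passed the test in each genotype alone as well, with 3.35 ± 0.45 in BLT1-/-KRasLA1, 2.61 ± 0.45 in BLT1+/+KRasLA1, 3.56 ± 0.45 in BLT1-/- and 4.15 ± 0.45 in BLT1+/+ lungs. The call in BLT1+/+KRasLA1 lungs was lost without replicate 1 (2.55, adjusted p = 0.0559) and without replicate 2, the lung with the Y-linked signal (2.53, adjusted p = 0.0534). In total lung RNA, a change in the number of cells of a type and a change in RNA per cell cannot be told apart. This holds for Ccl3 and for every gene below.

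**Figure D1:**
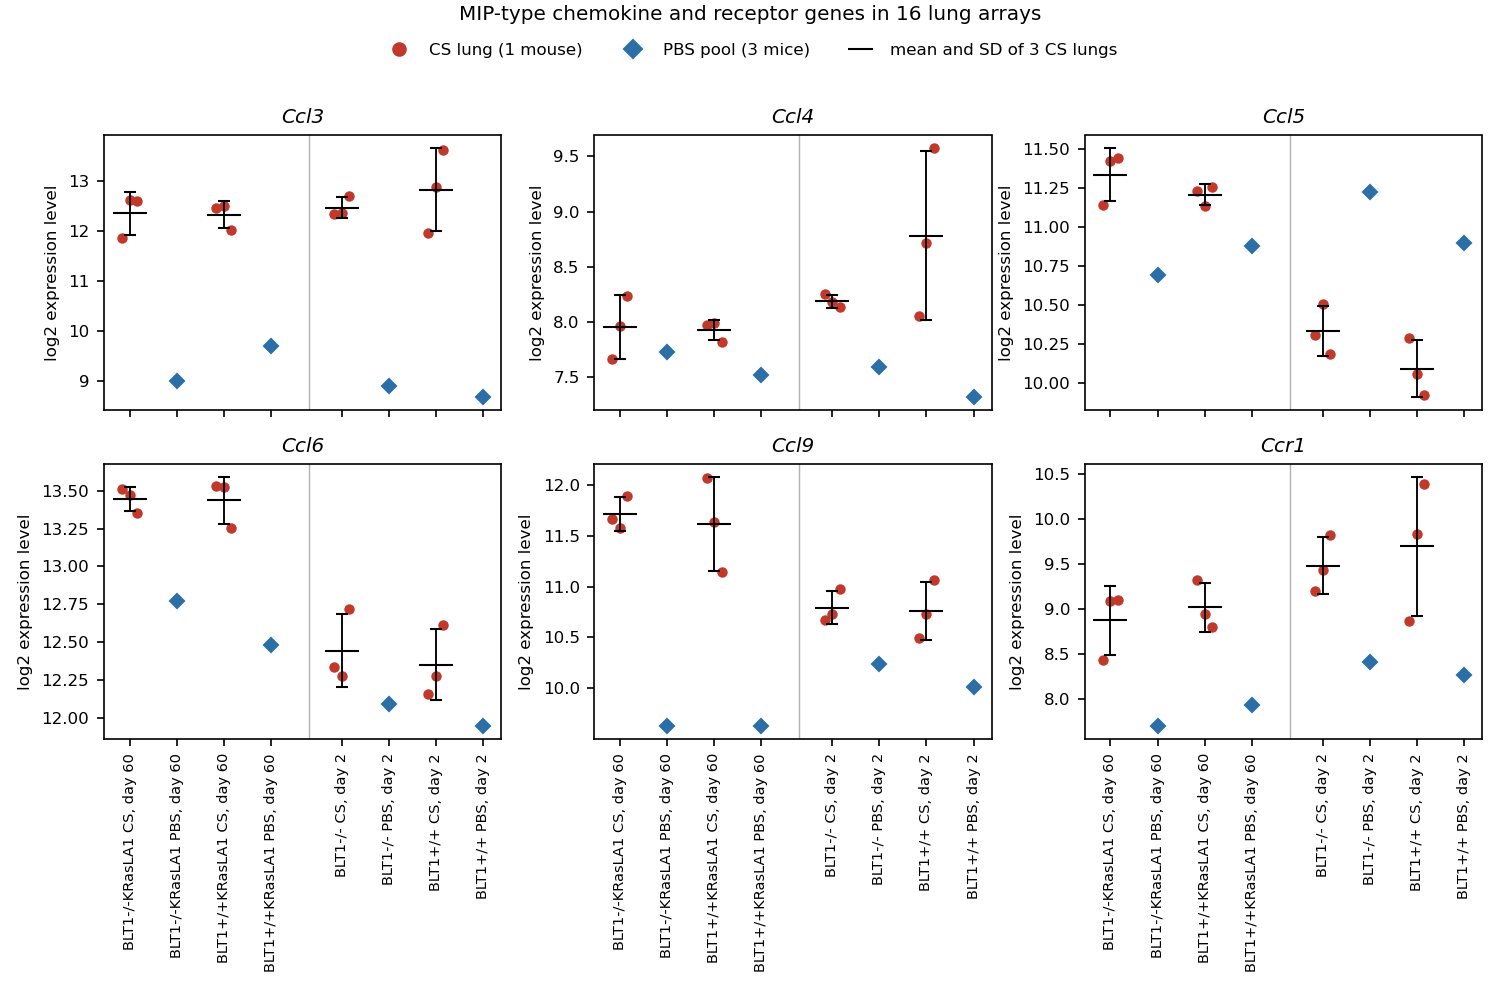
Log2 expression level (vertical axes, each with its own range) of the 6 genes on 16 arrays, by group (horizontal axis). Red circles are single CS lungs, blue diamonds are PBS pools of 3 mice, and black lines show the mean and SD of 3 CS lungs. Ccl3 was at 11.86 or above in all 12 CS lungs and at 9.71 or below in all 4 pools, whereas Ccl5 lay below its pools in all 6 CS lungs of day 2 and above its pools in all 6 of day 60.

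Ccl4, which attracts monocytes and T cells, was called only at day 2, where the larger value was that of BLT1+/+ lungs. It was the dimmest of the 6 genes, with a mean of 8.05 over the arrays, at percentile 37.3 of all genes. Changes of dim probe sets are understated on these arrays, so its responses may be larger than the values given. At day 60 Ccl4 was at 7.66, 7.97 and 8.24 in BLT1-/-KRasLA1 CS lungs, against 7.73 in their pool, and at 7.98, 7.99 and 7.82 in BLT1+/+KRasLA1 CS lungs, against 7.53 in their pool. At day 2 it was at 8.25, 8.19 and 8.13 in BLT1-/- CS lungs, against 7.60 in their pool, and at 8.05, 8.72 and 9.58 in BLT1+/+ CS lungs, against 7.32 in their pool. The day 2 CS lungs all lay above both day 2 pools, while 1 BLT1-/-KRasLA1 CS lung lay below its own pool at day 60. The mean response was 0.32 ± 0.27 at day 60 (5 of 6 lungs, adjusted p = 0.710), and Ccl4 rose by 1.03 ± 0.27 at day 2 (2.04-fold, 6 of 6 lungs, adjusted p = 0.0239). The day 2 response was 0.59 ± 0.38 in BLT1-/- lungs (adjusted p = 0.356) and 1.46 ± 0.38 in BLT1+/+ lungs (adjusted p = 0.0855). Neither passed alone, but the BLT1+/+ value passed with the day 2 replicate number as a block (adjusted p = 0.0356) and without replicate 1 (1.83, adjusted p = 0.00434). The difference between these responses, BLT1-/- minus BLT1+/+, was -0.87 ± 0.54 and did not pass (limma, adjusted p = 0.820). The averaged day 2 call was lost with the 8 day 2 arrays alone (adjusted p = 0.0636). With 1 pool left out, an average over genotypes cannot be formed, and an additive model of genotype and silica on the arrays of that day then gives the response of the genotype that keeps its pool. For Ccl4 at day 2 such fits made no call, with an adjusted p of 0.409 from BLT1-/- lungs (0.59) and 0.193 from BLT1+/+ lungs (1.46).

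Ccl5 was the only one of the 6 genes with a called fall. T cells and natural killer (NK) cells are its best known sources. At day 60 Ccl5 was at 11.14, 11.43 and 11.45 in BLT1-/-KRasLA1 CS lungs, against 10.69 in their pool, and at 11.24, 11.13 and 11.26 in BLT1+/+KRasLA1 CS lungs, against 10.88 in their pool. At day 2 it was at 10.31, 10.51 and 10.19 in BLT1-/- CS lungs, against 11.23 in their pool, and at 10.29, 10.06 and 9.93 in BLT1+/+ CS lungs, against 10.90 in their pool. All 6 CS lungs of day 60 lay above both day 60 pools, and all 6 CS lungs of day 2 lay below both day 2 pools. Averaged over genotypes, Ccl5 rose by 0.49 ± 0.11 at day 60 (1.40-fold, 6 of 6 lungs, adjusted p = 0.0212) and fell by 0.85 ± 0.11 on the log2 scale at day 2 (1.80-fold lower, 6 of 6 lungs, adjusted p = 0.000471). The fall passed in BLT1-/- lungs (-0.89 ± 0.15, adjusted p = 0.00731) and in BLT1+/+ lungs (-0.81 ± 0.15, adjusted p = 0.0273). At day 60 neither genotype passed alone, with 0.65 ± 0.15 in BLT1-/-KRasLA1 (adjusted p = 0.0640) and 0.33 ± 0.15 in BLT1+/+KRasLA1 lungs (adjusted p = 0.515). The BLT1-/-KRasLA1 value passed with array weights (0.72, adjusted p = 0.00480), without its replicate 1 (0.74, adjusted p = 0.0217), and without BLT1-/- CS replicate 3 or BLT1+/+ CS replicate 1 or 3 of day 2 (adjusted p = 0.0499, 0.0348 and 0.0484). The additive fits with 1 day 60 pool left out made no call (0.65, adjusted p = 0.0526, from BLT1-/-KRasLA1 lungs, and 0.33, adjusted p = 0.342, from BLT1+/+KRasLA1 lungs). At day 2 the additive fit with the BLT1-/- pool left out made no call either (-0.81 from BLT1+/+ lungs, adjusted p = 0.0794), and the fall in BLT1+/+ lungs alone was not called with the 8 day 2 arrays alone (adjusted p = 0.0782), without replicate 2 (-0.79, adjusted p = 0.0761) or without replicate 3 (-0.72, adjusted p = 0.0742).

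Markers of several kinds of lymphoid and dendritic cells fell at day 2, those of the cells that make Ccl5 among them. Of 12 measured NK and cytotoxic genes, 10 fell at day 2 and 0 rose, with a median of -0.80, beside -0.02 over all genes. Among them were the granzyme Gzma (-1.02 ± 0.15) and the NK receptors Klrd1 (-1.01 ± 0.15) and Klra8 (-1.21 ± 0.19). Their mean level was 7.33 to 7.77 in day 2 CS lungs, against 8.36 and 8.41 in the pools. Of 13 T cell genes, 8 fell and 0 rose at day 2 (median -0.39), with Cd3g at -0.90 ± 0.15. Cells not known mainly for Ccl5 had falls as well, in 9 of 10 B cell genes (median -1.05) and in 7 of 11 dendritic cell genes (median -0.51). The mean level of the B cell genes was 8.35 to 9.06 in day 2 CS lungs, against 9.52 and 9.73 in the pools. At day 60, 9 of the 13 T cell genes rose and 0 fell (median 0.58, beside -0.03 over all genes), led by the costimulatory receptor Icos (1.07 ± 0.11) and the checkpoint receptor Ctla4 (1.12 ± 0.12). None of the 12 NK and cytotoxic genes passed at day 60 (limma; 1 at an unadjusted p under 0.05), where their mean level was 7.93 to 8.37 in CS lungs, against 7.89 and 8.14 in the pools. The part of these cells in the Ccl5 values was not tested.

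Ccl6 and Ccl9, a pair of macrophage and myeloid chemokines known from rodents, both had their highest levels in day 60 CS lungs. Ccl6 was at 13.51, 13.47 and 13.36 in BLT1-/-KRasLA1 CS lungs, against 12.77 in their pool, and at 13.53, 13.52 and 13.26 in BLT1+/+KRasLA1 CS lungs, against 12.48 in their pool. At day 2 it was at 12.34, 12.28 and 12.72 in BLT1-/- CS lungs, against 12.09 in their pool, and at 12.16, 12.28 and 12.61 in BLT1+/+ CS lungs, against 11.95 in their pool. Every CS lung lay above both pools of its day, and the day 60 CS lungs all lay above every other array. Ccl6 rose by 0.81 ± 0.13 at day 60 (1.76-fold, 6 of 6 lungs, adjusted p = 0.00223), and its day 2 response was 0.38 ± 0.13 (6 of 6 lungs, adjusted p = 0.0668). The day 2 response passed with the replicate number as a block (0.38, adjusted p = 0.00519) and without BLT1+/+ CS replicate 1 (0.43, adjusted p = 0.0304). By genotype, Ccl6 rose in BLT1+/+KRasLA1 lungs by 0.96 ± 0.18 (adjusted p = 0.0253) and was at 0.67 ± 0.18 in BLT1-/-KRasLA1 lungs (adjusted p = 0.108). The call in BLT1+/+KRasLA1 lungs was lost without its replicate 1 (0.91, adjusted p = 0.0828), without its replicate 2 (0.91, adjusted p = 0.0785), without BLT1+/+ CS replicate 2 of day 2 (adjusted p = 0.0526), without the mean-variance trend (adjusted p = 0.0512) and against the PBS pool of the other genotype (0.66, adjusted p = 0.0966). The BLT1-/-KRasLA1 value passed with array weights (0.64, adjusted p = 0.0205), with the 8 day 60 arrays alone (0.67, adjusted p = 0.0428), without BLT1-/- CS replicate 3 of day 2 (0.67, adjusted p = 0.0425) and against the other pool (0.97, adjusted p = 0.0269).

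Ccl9 was at 11.67, 11.57 and 11.90 in BLT1-/-KRasLA1 CS lungs, against 9.63 in their pool, and at 12.07, 11.64 and 11.15 in BLT1+/+KRasLA1 CS lungs, against 9.63 in theirs. At day 2 Ccl9 was at 10.67, 10.73 and 10.97 in BLT1-/- CS lungs, against 10.24 in their pool, and at 10.49, 10.73 and 11.06 in BLT1+/+ CS lungs, against 10.01 in theirs. No CS lung overlapped the pools of its day, and the pools of day 60 were lower than those of day 2. Ccl9 rose 4.11-fold at day 60 (adjusted p = 7.99e-05), in both BLT1-/-KRasLA1 (2.09 ± 0.27, adjusted p = 0.00341) and BLT1+/+KRasLA1 lungs (1.99 ± 0.27, adjusted p = 0.00515). At day 2 it rose by 0.65 ± 0.19 (1.57-fold, 6 of 6 lungs, adjusted p = 0.0430). This day 2 call was a narrow one. It was lost with quantile normalization (adjusted p = 0.0649), with cyclic loess (adjusted p = 0.0640) and without the mean-variance trend (adjusted p = 0.0579). The additive fits with 1 day 2 pool left out made no call (0.55 from BLT1-/- lungs, adjusted p = 0.152, and 0.75 from BLT1+/+ lungs, adjusted p = 0.160). It was also lost without replicate 2 or 3 of BLT1-/- CS, replicate 2 or 3 of BLT1+/+ CS, replicate 1, 2 or 3 of BLT1-/-KRasLA1 CS or replicate 2 of BLT1+/+KRasLA1 CS (adjusted p between 0.0502 and 0.0770).

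Macrophage markers stood beside these values. Of 13 monocyte and recruited macrophage genes, 10 rose and 0 fell at day 60 (median 0.84), among them the lysosomal protein Cd68 (1.04 ± 0.14), the complement component C1qb (0.98 ± 0.13) and Ms4a7 (1.35 ± 0.19). At day 2, 4 rose and 1 fell (median 0.27), led by the endotoxin co-receptor Cd14 (1.77 ± 0.19). The mean level of the list was 10.48 to 10.90 in day 60 CS lungs, against 9.87 and 10.07 in their pools, and 10.08 to 10.46 in day 2 CS lungs, against 9.95 and 10.05 in theirs. Of 11 alveolar macrophage genes, 4 rose and 0 fell at day 60 (median 0.33), among them the proton pump subunit Atp6v0d2 (0.99 ± 0.13) and the integrin Itgax (1.05 ± 0.16). At day 2, 2 rose and 1 fell (median 0.08), with the scavenger receptor Marco at 0.95 ± 0.18 and the lectin Siglecf at -0.35 ± 0.10. The mean level of this list was 11.11 to 11.41 in day 60 CS lungs, against 10.75 and 10.92 in their pools, and 10.39 to 10.50 in day 2 CS lungs, against 10.38 and 10.41 in theirs. The part of macrophage number in the Ccl6 and Ccl9 values was not tested.

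**Figure D2:**
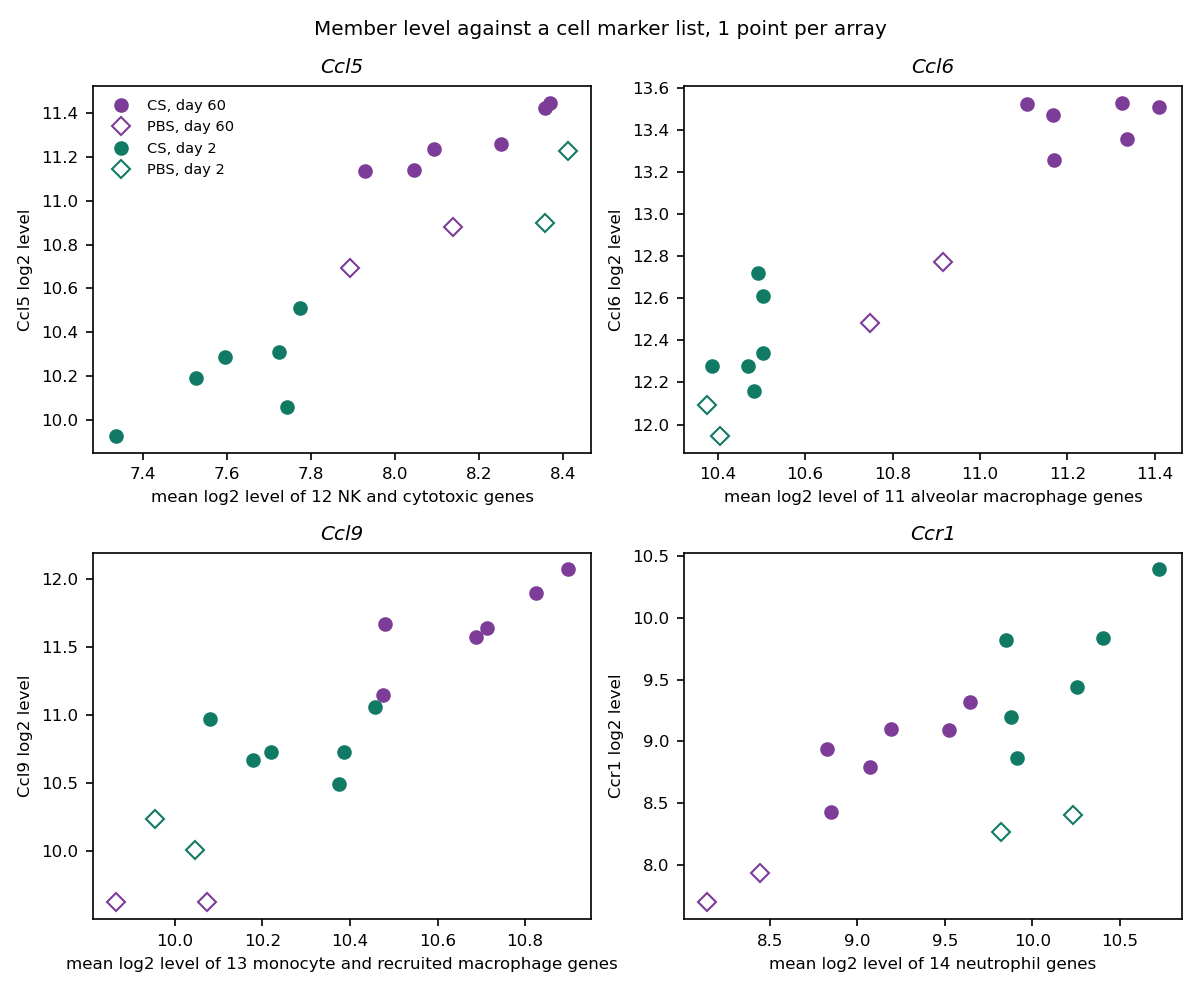
Log2 level of a gene (vertical axes) against the mean log2 level of a list of cell marker genes (horizontal axes), 1 point per array, with CS lungs as filled circles and PBS pools as open diamonds, day 60 in purple and day 2 in green. The day 2 CS lungs were lowest on both axes for Ccl5 and the NK and cytotoxic genes, and the day 60 CS lungs were highest on both axes for Ccl6 and the alveolar macrophage genes.

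Ccl5, Ccl9, Ccl6, Ccl3 and Ccl4 lie in this order on mouse chromosome 11 in RefSeq (GRCm38.p6), with no other protein-coding gene between them, and Ccr1 lies on chromosome 9. The 250 bases before the annotated start were searched on both strands in the promoters of Ccl3, Ccl6, Ccl9 and Ccr1, 4 of the 6 genes. The promoters of Ccl3, Ccl6 and Ccl9, the ligands called at day 60 with a promoter at hand, are printed 5′ to 3′ from RefSeq (minus strand of GRCm38.p6, ending at the base before the start). Capitals mark the letters GGAAGT or the reverse ACTTCC, a form of the site that ETS family factors such as the myeloid factor PU.1 bind. Other forms of the site were neither searched for nor marked. The spans are chr11:83649379-83649628 for Ccl3, chr11:83593088-83593337 for Ccl6 and chr11:83578637-83578886 for Ccl9.
Ccl3: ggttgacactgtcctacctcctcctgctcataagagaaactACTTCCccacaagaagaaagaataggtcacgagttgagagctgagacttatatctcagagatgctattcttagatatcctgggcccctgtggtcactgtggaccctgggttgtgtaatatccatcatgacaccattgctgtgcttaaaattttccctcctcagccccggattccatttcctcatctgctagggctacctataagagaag
Ccl6: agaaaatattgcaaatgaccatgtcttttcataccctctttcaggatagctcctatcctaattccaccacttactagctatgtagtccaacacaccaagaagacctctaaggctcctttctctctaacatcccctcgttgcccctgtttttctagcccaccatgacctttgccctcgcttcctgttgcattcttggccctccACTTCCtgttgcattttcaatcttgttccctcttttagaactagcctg
Ccl9: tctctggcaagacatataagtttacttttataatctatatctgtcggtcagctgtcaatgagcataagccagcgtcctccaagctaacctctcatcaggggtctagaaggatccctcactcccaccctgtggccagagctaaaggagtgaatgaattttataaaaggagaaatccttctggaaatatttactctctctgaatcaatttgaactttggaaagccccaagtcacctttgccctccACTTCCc

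The ETS letters were found in 3 of the 4 promoters, at -209 to -204 in Ccl3, -48 to -43 in Ccl6 and -7 to -2 in Ccl9 counted from the start, and in 19.7% of 32851 promoters of the same length. Ccl6 and Ccl9 shared the longest exact run of any pair, 13 bases, within an alignment of 17 columns of which 16 were identical. In both genes this stretch ends with the ETS letters. The other pairs shared runs of 7 to 9 bases. The letters of an NF-kB site (GGG and CC with 5 bases of any kind between them) were found in Ccl9 and Ccr1 and in 45.8% of all promoters. Those of an AP-1 site (TGANTCA) were found in Ccl9 and in 6.75% of all, and the TATA letters (TATAAA) in Ccl9 and in 12.4% of all. Those of a C/EBP site (TTGCNNAA) were found in none of the 4 and in 9.56% of all. The motifs did not overlap one another within these promoters, apart from 2 of the 3 TATA matches in Ccl9. Such matches describe letters and not binding.

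Ccr1, the receptor for Ccl3, Ccl5, Ccl6 and Ccl9 on monocytes and mouse neutrophils, was higher in CS lungs at both days. Ccr1 was at 8.43, 9.09 and 9.10 in BLT1-/-KRasLA1 CS lungs, against 7.69 in their pool, and at 9.32, 8.94 and 8.79 in BLT1+/+KRasLA1 CS lungs, against 7.93 in their pool. At day 2 it was at 9.19, 9.44 and 9.82 in BLT1-/- CS lungs, against 8.40 in their pool, and at 8.87, 9.84 and 10.40 in BLT1+/+ CS lungs, against 8.27 in their pool. No CS lung overlapped the pools of its day, and the lowest day 60 CS lung was level with the BLT1-/- pool of day 2. The mean response was 1.13 ± 0.31 at day 60 (2.19-fold, 6 of 6 lungs, adjusted p = 0.0615), and Ccr1 rose by 1.26 ± 0.31 at day 2 (2.39-fold, 6 of 6 lungs, adjusted p = 0.0179). The day 60 value passed with array weights (1.26, adjusted p = 0.00513), with the 8 day 60 arrays alone (adjusted p = 0.0168), without BLT1-/-KRasLA1 CS replicate 1 (1.24, adjusted p = 0.0346) and without replicate 1 or 3 of BLT1+/+ CS at day 2 (adjusted p = 0.00874 and 0.0247). In BLT1-/-KRasLA1 lungs alone, Ccr1 passed with array weights (1.35, adjusted p = 0.0444). At day 2 the additive fits with 1 pool left out made no call (1.08 from BLT1-/- lungs, adjusted p = 0.200, and 1.43 from BLT1+/+ lungs, adjusted p = 0.242). Neither genotype passed alone at day 2 in the fit without a block, with 1.08 ± 0.44 in BLT1-/- and 1.43 ± 0.44 in BLT1+/+ lungs, and both did with the replicate number as a block (adjusted p = 0.0375 and 0.0228). Without BLT1+/+ CS replicate 1 both passed too (1.08, adjusted p = 0.0470, and 1.85, adjusted p = 0.00903).

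Neutrophils are among the cells that carry Ccr1, so their markers are given beside it. Of 14 neutrophil genes, 4 rose and 0 fell at day 60 (median 1.01), with Cd177 at 1.94 ± 0.14, the protease Mmp9 at 1.04 ± 0.19 and the calprotectin subunit S100a8 at 1.45 ± 0.35. At day 2, 2 rose and 0 fell (median -0.01), with Cd177 at 0.66 ± 0.14 and the decoy receptor Il1r2 at 1.52 ± 0.37. The day 2 medians of the genotypes had opposite signs. They were -0.36 in BLT1-/- lungs (5 of 14 positive, 0 called higher and 1 lower) and 0.37 in BLT1+/+ lungs (13 of 14 positive, 1 called higher and 0 lower). The interaction called 0 of the 14. BLT1-/- minus BLT1+/+ lungs after CS at day 2 called 0 higher and 1 lower of the 14 (2 positive, median -0.29), where 0.0201% of all genes were called. Their mean level was 8.82 to 9.65 in day 60 CS lungs, against 8.14 and 8.44 in the pools. It was 9.85 to 10.73 in day 2 CS lungs, against 9.82 and 10.23 in the pools. In BLT1+/+ CS lungs of day 2 it was 9.91, 10.41 and 10.73 in replicates 1, 2 and 3, the order that Ccr1, Ccl3, Ccl4, Ccl6 and Ccl9 had there. The other CS groups did not share the order of Ccr1. In BLT1-/- CS lungs of day 2 the mean level was 9.88, 10.26 and 9.85, while Ccr1 was highest in replicate 3. At day 60 it was 8.85, 9.53 and 9.19 in BLT1-/-KRasLA1 and 9.65, 8.82 and 9.07 in BLT1+/+KRasLA1 CS lungs. The higher day 2 pool lay within the range of the day 2 CS lungs in these genes, and 7 of the 14 were lower in day 60 than in day 2 pools (median -1.72, limma). The part of neutrophil number in the Ccr1 values was not tested.

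Counted over the set, 4 of 6 genes rose and 0 fell at day 60 (Ccl3, Ccl5, Ccl6 and Ccl9), where 4.02% of all genes were called (3.35% higher and 0.677% lower), and the median response was 0.97, beside -0.03 over all genes. At day 2, 4 rose (Ccl3, Ccl4, Ccl9 and Ccr1) and Ccl5 fell, where 12.4% of all genes were called (8.03% higher and 4.37% lower), and the median was 0.84, beside -0.02. In single genotypes, 2 of 6 were called in BLT1-/-KRasLA1 lungs (1.17% of all genes), 3 in BLT1+/+KRasLA1 lungs (0.762%), 2 in BLT1-/- lungs (6.6%) and 2 in BLT1+/+ lungs (1.16%). The last count was 4 with the day 2 replicate block, which added Ccl4 and Ccr1. The 2 averaged responses use different pools and lungs, and the single-genotype responses share their arrays with the averages.

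**Figure D3:**
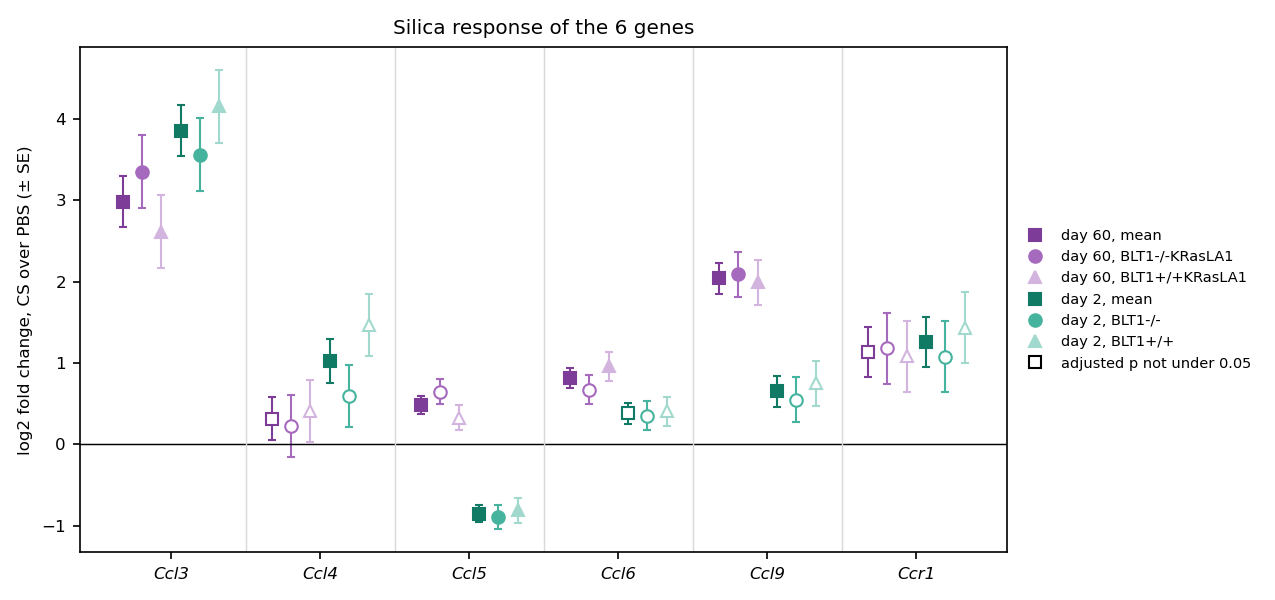
Silica response as log2 fold change of CS over PBS (vertical axis, ± SE) for the 6 genes (horizontal axis), at day 60 in purple and at day 2 in green. Squares are means over the BLT1 genotypes, circles BLT1-/- and triangles BLT1+/+ lungs, and open symbols did not reach an adjusted p under 0.05. Ccl3 lay between 2.61 and 4.15 throughout, and only Ccl5 had values on both sides of 0.

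No difference between BLT1 genotypes passed the test for any of the 6 genes. BLT1-/- minus BLT1+/+ lungs after CS gave 0 of 6 calls at day 60 (0.0401% of all genes were called) and 0 of 6 at day 2 (0.0201%), with limma. At an unadjusted p under 0.05 the counts were 0 of 6 at day 60 (4.06% of all genes) and 2 of 6 at day 2 (8.7% of all genes). The first was Ccl4, at -0.59 with a 95% confidence interval of -1.17 to -0.01 (adjusted p = 0.553). It was -0.96 without BLT1+/+ CS replicate 1 and -0.20 without BLT1+/+ CS replicate 3. The other was Ccl5, at 0.24 with an interval of 0.01 to 0.48 (adjusted p = 0.545), and between 0.16 and 0.34 with a lung left out. For Ccl3 the difference was 0.03 at day 60 (interval -0.65 to 0.71) and -0.36 at day 2 (interval -1.04 to 0.32). For Ccl9 it was 0.09 at day 60 (interval -0.32 to 0.51) and 0.03 at day 2 (interval -0.39 to 0.45), and for Ccl6 it was 0.01 (interval -0.26 to 0.28) and 0.09 (interval -0.18 to 0.37). For Ccl4 it was 0.03 at day 60 (interval -0.55 to 0.61), for Ccl5 it was 0.13 at day 60 (interval -0.10 to 0.36), and for Ccr1 it was -0.15 at day 60 (interval -0.81 to 0.52) and -0.22 at day 2 (interval -0.88 to 0.45). The interaction of BLT1 with silica gave 0 calls among the 6 genes and 0% of all genes at either day, and at an unadjusted p under 0.05 it gave 0 of the 6 and 396 genes at day 60, and 0 of the 6 and 896 genes at day 2. The widest intervals were those of the interaction for Ccl3, 0.74 (-0.63 to 2.10) at day 60 and -0.59 (-1.96 to 0.77) at day 2. A Ccl3 response 2-fold larger in BLT1-/-KRasLA1 than in BLT1+/+KRasLA1 lungs thus lies inside the day 60 interval. One 2-fold smaller in BLT1-/- than in BLT1+/+ lungs lies inside the day 2 interval.

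For Ccl3, Ccl4, Ccl5 and Ccr1 the BLT1+/+ CS lungs of day 2 had the largest SD of the 4 CS groups. For Ccl6 it was largest in BLT1-/- CS lungs of day 2 (0.24, beside 0.23 in BLT1+/+), and for Ccl9 in BLT1+/+KRasLA1 CS lungs (0.46). The SD of the day 2 BLT1+/+ group was 0.83 for Ccl3, 0.76 for Ccl4 and 0.77 for Ccr1, beside 0.21, 0.06 and 0.31 in BLT1-/- CS lungs of the same day. Replicate 3 was the highest BLT1+/+ lung for Ccl3, Ccl4, Ccl6, Ccl9 and Ccr1 and the lowest for Ccl5, and replicate 1 was the reverse. In the BLT1-/- group of day 2, replicate 3 was again the highest for Ccl3, Ccl6, Ccl9 and Ccr1 and the lowest for Ccl5, but for Ccl4 it was the lowest. Same-numbered day 2 lungs also deviated together over all genes, with correlations of 0.426, 0.200 and 0.345 for replicates 1, 2 and 3.

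The responses of Ccl5 and Ccl9 differed between the days. The response at day 60 minus that at day 2 was 1.34 ± 0.15 for Ccl5 (adjusted p = 0.00104) and 1.39 ± 0.27 for Ccl9 (adjusted p = 0.0172). These were 2 of 6 calls, where 2.35% of all genes were called (1.70% higher and 0.657% lower). For Ccl5 the responses had opposite signs, and for Ccl9 both were rises. The difference was 0.43 ± 0.18 for Ccl6 (adjusted p = 0.274, or 0.0402 once the day 2 replicate number was a block), -0.87 ± 0.45 for Ccl3 (adjusted p = 0.422), -0.71 ± 0.38 for Ccl4 (adjusted p = 0.449) and -0.12 ± 0.44 for Ccr1 (adjusted p = 0.962). None of the 6 genes passed between the PBS pools of the 2 days, where 0.396% of all genes were called (limma). An unadjusted p under 0.05 was seen for 1 of the 6, beside 10.7% of all genes. That was Ccl6, whose day 60 pools exceeded those of day 2 by 0.61 ± 0.15 (adjusted p = 0.127), where the alveolar macrophage list had a median of 0.40 with 1 of 11 genes higher. Ccl9 went the other way in the pools (-0.50 ± 0.24, adjusted p = 0.481), so its larger day 60 response rests on higher CS lungs and on lower pools. For Ccl5 the pools differed by -0.28 ± 0.13 (adjusted p = 0.488).

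Ranked by group mean, the genes fell into different orders. For Ccl3 the 4 CS groups came first (12.82 in BLT1+/+ of day 2, 12.46 in BLT1-/- of day 2, 12.35 in BLT1-/-KRasLA1 and 12.32 in BLT1+/+KRasLA1), and neighbouring CS groups differed by less than the residual SD of 0.50. The step from the last CS group to the first pool was 2.61. Ccl4 and Ccr1 also had BLT1+/+ and then BLT1-/- CS lungs of day 2 on top (8.78 and 8.19 for Ccl4, 9.70 and 9.48 for Ccr1), but for Ccr1 no neighbours in the order differed by more than its residual SD of 0.48, and for Ccl4 only the first 2 did (residual SD 0.41). For Ccl6 and Ccl9 the CS groups of day 60 came first (13.45 and 13.44 for Ccl6, 11.71 and 11.62 for Ccl9, BLT1-/-KRasLA1 before BLT1+/+KRasLA1). The 2 were level, and the next group was lower by 0.66 for Ccl6 and 0.83 for Ccl9, beyond their residual SDs of 0.19 and 0.30. For Ccl6 that next group was a day 60 pool, and for Ccl9 the BLT1-/- CS lungs of day 2. For Ccl5 the order was mixed, with the CS groups of day 60 at 11.34 and 11.21, the 4 pools between 10.69 and 11.23, and the CS groups of day 2 last, at 10.34 in BLT1-/- and 10.09 in BLT1+/+ lungs.

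Of 13 other CC ligands measured, 6 rose at day 60 and 8 at day 2, and 0 fell at either (medians 0.71 and 0.63). Ccl22, which attracts cells bearing Ccr4, rose by 1.18 ± 0.13 at day 60, the monocyte attractant Ccl2 by 2.20 ± 0.31 at day 60 and 3.02 ± 0.31 at day 2, and Ccl8 by 1.18 ± 0.20 at day 60. At day 2 Ccl7, another monocyte attractant, rose by 2.24 ± 0.29 and the Ccr6 ligand Ccl20 by 0.95 ± 0.19. None of the 13 differed in response between days (limma; 1 at an unadjusted p under 0.05).

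Receptors other than Ccr1 did not rise at day 2. Of 9 measured, 6 rose and 0 fell at day 60 (median 0.59), and 0 rose and 3 fell at day 2 (median -0.15). Ccr6, a receptor of B cells and some T cells, rose by 0.80 ± 0.09 at day 60 and fell by 0.47 ± 0.09 on the log2 scale at day 2. The T cell receptors Ccr9 and Ccr4 rose by 0.82 ± 0.12 and 0.91 ± 0.14 at day 60. At day 2 the lymph node homing receptor Ccr7 fell by 0.58 ± 0.11 on the log2 scale, and Ccr2, the monocyte receptor for Ccl2, by 0.38 ± 0.12, with an adjusted p only just inside the threshold. Of the 9, 6 differed in response between days, all with the higher value at day 60 (median difference 0.91), whereas for Ccr1 the difference was -0.12. Between the PBS pools, 0 of the 9 were higher at day 60 than at day 2 (median -0.25, 1 called lower with limma). Lower day 60 pools thus enter the day difference of these receptors. Ccr1 was lower in the day 60 pools too (-0.52 ± 0.38, not called). B cells are among the cells that carry Ccr6 and Ccr7, and of 10 B cell genes 2 rose at day 60 and 9 fell at day 2 (medians 0.49 and -1.05), with Fcer2a at 1.35 ± 0.18 at day 60 and Cd79b at -1.12 ± 0.14 at day 2. Of 11 dendritic cell genes, 3 rose and 1 fell at day 60 and 7 fell at day 2 (medians 0.25 and -0.51). The part of these cells in the receptor values was not tested. Of 5 atypical receptors, which bind chemokines without G protein signalling, none passed at either day (limma; 1 at day 60 and 1 at day 2 had an unadjusted p under 0.05). Ackr1 was at 0.58 ± 0.17 at day 60 (adjusted p = 0.0813) and Ackr4 at -0.34 ± 0.12 at day 2 (adjusted p = 0.0706).

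**Figure D4:**
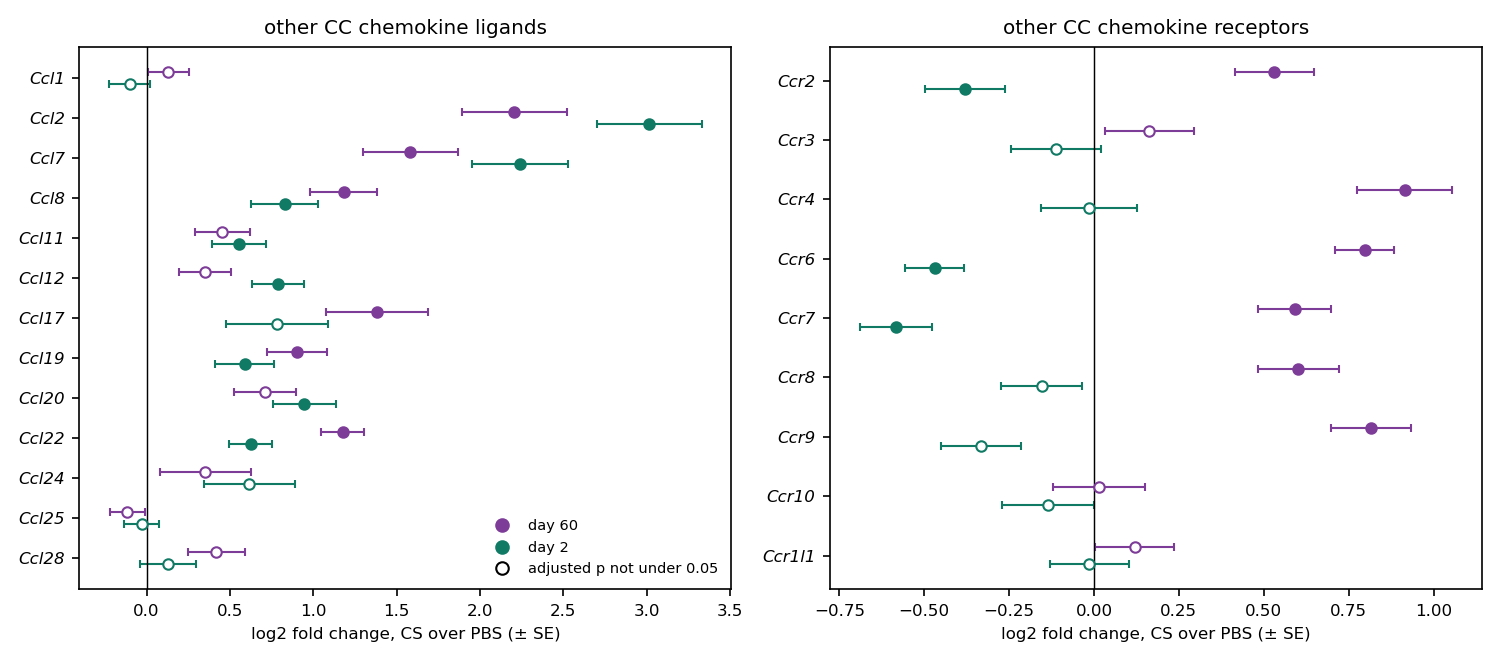
Silica response as log2 fold change of CS over PBS, averaged over BLT1 genotypes (horizontal axes, ± SE), for 13 other CC ligands (left) and 9 other CC receptors (right), at day 60 in purple and at day 2 in green. Open circles did not reach an adjusted p under 0.05. Ligands called at either day lay above 0, and the 6 receptors called at day 60 lay above 0 while the 3 called at day 2 lay below it.

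Genes of chemokine receptor signalling were divided as well. Of 19 measured, 5 rose and 0 fell at day 60 (median 0.07), and 2 rose and 4 fell at day 2 (median -0.05). Rgs1, which shortens G protein signals from chemokine receptors, rose by 2.11 ± 0.18 at day 60. The subunits of the leukocyte kinase PI3K gamma, Pik3cg and Pik3r5, rose by 0.63 ± 0.09 and 0.88 ± 0.12 at day 60. At day 2 the Rac activator Dock2 fell by 0.53 ± 0.11 on the log2 scale, the G protein subunit Gng2 by 0.40 ± 0.09 and the phospholipase Plcb2 by 0.39 ± 0.08. Genes of the NF-kB response and its inducers, to which Ccl3, Ccl4 and Ccl5 are known to belong as targets, had values above 0 at both days in all 17 measured. Of the 17, 11 rose and 0 fell at day 60 and 11 rose and 0 fell at day 2 (medians 0.59 and 0.49). At day 60 the inhibitor gene Nfkbie rose by 1.04 ± 0.13, Tnfaip2 by 0.76 ± 0.11 and the subunit gene Nfkb2 by 0.63 ± 0.10. At day 2 the cytokine Il1a rose by 2.09 ± 0.30, the adhesion molecule Icam1 by 0.46 ± 0.06 and Nfkb2 by 0.54 ± 0.10. None of the 17 differed in response between days (limma; 4 at an unadjusted p under 0.05).

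The genes whose levels were most like each of the 6 differed from member to member. Likeness is Pearson's r of log2 levels over the 16 arrays, given as a description, since the arrays fall into groups that share day, agent and genotype. Nearest to Ccl3 were the myeloid receptor gene Clec5a (r = 0.989), the interleukin 1 receptor antagonist gene Il1rn (0.980) and the cystine transporter gene Slc7a11 (0.978). Nearest to Ccl4 were Dusp5 (0.954), the cytokine gene Osm (0.941) and the inflammasome sensor gene Nlrp3 (0.928). The genes nearest to Ccl5 belong to cytotoxic lymphocytes in part: Tbx21, the transcription factor T-bet (0.964), Prex1 (0.962) and the cathepsin gene Ctsw (0.952). Nearest to Ccl6 were the macrophage genes Atp6v0d2 (0.981) and Gpnmb (0.961) and the ferritin light chain gene Ftl1 (0.966). Nearest to Ccl9 were Cd177 (0.952), Rgs1 (0.946) and the interferon gamma receptor gene Ifngr2 (0.946), and nearest to Ccr1 the costimulatory gene Cd80 (0.967), the neutrophil attractant Cxcl2 (0.940) and the lectin receptor gene Clec4d (0.938). No gene was among the 3 nearest of more than 1 member.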

How the data were processed

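Total lung RNA was measured on Affymetrix whole-transcript arrays. The deposited table holds log2 expression values per probe set, which the authors made with RMA (Partek 6.6 is the program named), per the submitters' processing notes. RMA brings all arrays to 1 distribution (array medians 8.25 to 8.34), so a change in total RNA would not be seen, and changes of dim probe sets are understated. Of 35556 probe sets, 21789 carried 1 gene symbol in the platform annotation, 1621 several and 12146 none, and 21698 were found in RefSeq. The probe set with the highest mean was kept for each of 19938 genes, as 999 genes had several.

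Group means of all 16 arrays were fitted with limma 3.58.1 in R 4.3.3 (lmFit, eBayes with trend; 8 residual degrees of freedom, all from CS lungs, plus 5.40 prior). Each PBS pool has no replicate, so its variance was taken to equal that of the CS lungs. Each of 12 contrasts was tested two-sided with Benjamini-Hochberg adjustment over all genes and a threshold of 0.05. Errors are SE unless called SD, and "rose" or "fell" means past that threshold. Precision is limited by how few arrays there are. The median SE was 0.0983 for averaged responses and 0.139 against 1 pool. The procedure was tested on simulated data. The genes and lists were chosen with earlier results of these data known.

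Named are the 6 genes, for each the 3 genes of highest correlation (predicted genes and small RNAs left out), and per list and averaged response up to 3 passing genes of smallest p, or up to 2 where none passed. Ltb4r1 and Eif2s3y were named outside this rule as checks, as were genes given beside a group they mark. List means are means of log2 levels. Promoters were searched with Python 3.11.15, and pairs aligned with Biopython 1.88.

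Replicate numbers were checked by correlating deviations from group means between same-numbered lungs. At day 2 the correlations were 0.426, 0.200 and 0.345, all over 0.1, so same-numbered lungs may be paired there. The main fit has no block for the numbers. A block for the day 2 silica responses was an alternative chosen after seeing the data. At day 60 the correlations were 0.0914, 0.0096 and 0.0552, all under 0.1. The pools carry no number, and the block gives them errors that may be too small. Alternatives were other normalizations, a low-level filter, the mean of probe sets, no trend, array weights, single days, exchanged pools, the replicate block, leaving out each lung, and leaving out each pool in an additive fit of that day.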

Additional observations from a re-analysis of the deposited data

Results flagged for a closer look

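The silica response of Ccl5 differed between days: day 60 minus day 2 gave 1.34 ± 0.15 on the log2 scale (adjusted p = 0.00104), with a rise in 6 of 6 lungs at day 60 and a fall in 6 of 6 lungs at day 2. The response of Ccl9 differed as well, by 1.39 ± 0.27 (adjusted p = 0.0172), with a rise in 6 of 6 lungs at each day. Both are picked out by a direct test of the difference with limma. KRasLA1 was carried at day 60 and not at day 2, so day and allele cannot be told apart in either value. Both day 60 pools also carried Y-linked signal, and of the day 60 CS lungs only BLT1+/+KRasLA1 replicate 2 did. This difference cannot be told apart from silica at day 60 either. Both differences kept their call in every alternative run for them, including without BLT1+/+KRasLA1 CS replicate 2 (1.36 for Ccl5 and 1.38 for Ccl9). None of those alternatives left out or exchanged a pool, so how far the differences rest on the pools was not tested. Groups of 3 lungs are too small for a search for single outlying samples.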

How the results depend on the processing

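Of the values of single genes recomputed under other settings, 25 newly passed, 31 no longer passed and 32 changed sign. The other 1406 were of 2 kinds. Contrast values among them kept their direction and their side of the threshold. Group mean levels under quantile normalization moved by less than the SD. Of the recomputed counts, 229 stayed within 1.5 times and 12 did not. The Ccl3 rise averaged over genotypes kept its call in every alternative at both days. The differences between days of Ccl5 and Ccl9 kept theirs as well, but no alternative for them left out or exchanged a pool. The count of 2 genes called in BLT1+/+ lungs at day 2 was 1 with the 8 day 2 arrays alone, 1 to 4 with a lung left out and 4 with the day 2 replicate block, an alternative chosen after seeing the data. The count of 5 for the averaged day 2 response was 1 and 2 in additive fits of the day 2 arrays with the BLT1-/- or the BLT1+/+ pool left out, which change the pool and the model together and estimate the response of the other genotype alone. The count of 3 in BLT1+/+KRasLA1 lungs was 1 to 3 with a lung left out, that of 2 in BLT1-/-KRasLA1 lungs was 2 to 4 with a lung left out and 5 with array weights, and that of 0 between the pools of the days was 1 with array weights (Ccl6). The replicate block left the counts of 0 for BLT1 differences at 0, and beside the changes given with Ccl4, Ccl6 and Ccr1 it changed no other call. All sign changes were in values that did not pass. BLT1-/-KRasLA1 minus BLT1+/+KRasLA1 at day 60 was -0.032 for Ccl4 with quantile normalization and -0.013 with cyclic loess, and with array weights it was -0.074 for Ccl6 and -0.030 for Ccl9. With array weights the day 60 interaction of Ccl9 was -0.026 and the day difference of Ccr1 was 0.14. With a lung left out, the genotype difference at day 60 ran from -0.12 to 0.28 for Ccl3, -0.11 to 0.17 for Ccl4, -0.0817 to 0.05485 for Ccl6, -0.14 to 0.32 for Ccl9 and -0.26 to 0.078 for Ccr1. At day 2 it ran from -0.79 to 0.040 for Ccl3, -0.96 to -0.20 for Ccl4, -0.0425 to 0.23 for Ccl6, -0.10 to 0.18 for Ccl9 and -0.63 to 0.13 for Ccr1. The interaction ran from -0.14 to 0.33 for Ccl9 and -0.020 to 0.32 for Ccr1 at day 60, and from -0.17 to 0.014 for Ccl5 and -0.19 to 0.080 for Ccl6 at day 2. The day difference of Ccr1 ran from -0.33 to 0.049. The causes of these changes were not tested. Signal over background was not available, and 1 pool per group limits every response to silica.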
